A study of Mus musculus with 29 samples.

Results

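The genes described here encode the proteins of the cytosolic ribosome. They were chosen by name from the table of counts, as large-subunit (Rpl) and small-subunit (Rps) genes together with the stalk genes Rplp0, Rplp1 and Rplp2 and with Rpsa, leaving out pseudogene names and requiring a mean of at least 1 CPM (a gene's counts scaled to the library's gene counts). Of 23420 genes in the files, 80 had a matching name and 74 passed the minimum: 40 large-subunit genes, 29 small-subunit genes, 3 stalk genes and the 2 paralogs Rpl3l and Rps27l. All 74 entered the tests. The 6 left out were Rpl26 and Rpl10l at 0.00 CPM, Rpl39l at 0.06, Rps27 at 0.36, Rpl30 at 0.79 and Rpl34 at 0.82, and the lowest that passed were Rpl39 at 11.6 and Rps27l at 14.8 CPM.

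Polyadenylated RNA of mouse hearts was sequenced in 29 libraries. All mice are labelled C57BL/6J and 12 weeks of age, and the groups crossed 4 genotypes with 2 conditions. The genotypes were wild type, ablation of PKCdelta (a protein kinase C isoform) in the postnatal heart, germline knockout of PKCepsilon (a second isoform), and both deletions together. The unstressed groups held 4, 3, 3 and 4 libraries in that order, and the groups taken 4 weeks after transverse aortic constriction (TAC), an operation that narrows the aorta and puts a pressure load on the left ventricle, held 4, 3, 4 and 4. Controls are labelled unstressed, not sham-operated, and the Cre driver of the cardiac ablation is not given in the sources used here. The tissue label names the whole heart, while the protocol names the frozen ventricular apex.

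A ribosome joins ribosomal RNA to its proteins, most of them in a single copy, and the cell has to make these proteins in matching amounts. Their mRNAs are short and abundant, and most start at a C inside a run of pyrimidines, the 5′ terminal oligopyrimidine tract, through which the growth-control kinase mTORC1 raises or lowers their translation. Heart muscle grows under pressure load mainly by enlarging its cells, which calls for more ribosomes, and striated muscle expresses a paralog of the core protein Rpl3, called Rpl3l.

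The sequence around the start of transcription was compared with the response to TAC, because the pyrimidine run lies there. RefSeq's promoter table for GRCm38.p6 held 55 of the 74 genes. Where it listed several starts of a gene, the window with the longest run of C and T was used. The following windows of 30 bases run 5′ to 3′ on the gene's strand, with 15 bases before the listed start and 15 from it on, and capitals mark the longest run of C and T. Rplp2 (chr7:141447636-141447665, plus strand), Rpl18 (chr7:45718056-45718085, plus), Rpl28 (chr7:4792950-4792979, plus) and Rpl38 (chr11:114668565-114668594, plus) rose after TAC in all 4 genotypes. Rpl3l (chr17:24727811-24727840, plus) and Rps25 (chr9:44407699-44407728, plus) fell in 3. Rps6 (chr4:86857353-86857382, minus) and Rps4x (chrX:102189377-102189406, minus) were called higher after TAC in the combined group and in no other. These 8 were chosen after their values were seen, and they do not stand for the rest. Other genes called higher in all 4 genotypes had longest runs of 3 (Rps13), 4 (Rps28), 5 (Rpl27) and 6 (Rpl37). In Rpl10a, Rpl12, Rps12 and Rps21 the longest run was 7, against 13 in Rpl13a and 9 in Rps26. Of other genes called lower in at least 1 genotype, Rpl4 and Rpl19 had runs of 11, Rps2 of 6 and Rpl5 of 4.
Rplp2: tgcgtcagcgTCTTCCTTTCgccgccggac
Rpl18: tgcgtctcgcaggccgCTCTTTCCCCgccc
Rpl28: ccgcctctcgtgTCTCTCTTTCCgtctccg
Rpl38: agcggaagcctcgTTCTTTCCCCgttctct
Rpl3l: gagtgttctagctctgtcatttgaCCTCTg
Rps25: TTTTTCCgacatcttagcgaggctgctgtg
Rps6: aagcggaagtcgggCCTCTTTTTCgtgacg
Rps4x: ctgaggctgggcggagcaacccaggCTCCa

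A run of 8 or more pyrimidines lay in the window of 24 of the 55 genes (43.6%), against 15.1% of the 10130 tested genes in the table. The ETS-type motif CCGGAAG, searched on both strands of the 300 bases around the start, was in 22 of the 55 ribosomal protein genes and 18.6% of all tested genes. After TAC the 24 genes with such a run had median log2 fold changes of 0.239, 0.179, 0.151 and 0.29 in wild type, PKCdelta, PKCepsilon and combined, with 10, 9, 9 and 15 called higher. The 31 genes without had medians of 0.267, 0.219, 0.148 and 0.24, with 21, 16, 14 and 19 called higher. Called lower were 0, 1, 0 and 2 genes with a run and 3, 2, 3 and 2 without. Of all genes tested 17.8%, 12.9%, 14.5% and 22.0% were called higher, and 17.9%, 14.0%, 14.3% and 21.8% lower. Shares of all genes with or without a run are not given here. The genes with a run had the lower median in wild type and PKCdelta, and the higher one in PKCepsilon (0.151 against 0.148) and the combined group. A match in these letters is a description of the sequence, not of a bound factor.

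The libraries held between 10523709 and 17314739 counts in genes. Reads with more than 1 alignment, which were set aside before counting, were 8.01% to 9.57% of reads in unstressed and 10.98% to 14.2% in TAC libraries, and the ranges did not overlap. Ribosomal protein genes are the founders of large families of processed pseudogenes, so such reads matter here: 46 of the 74 genes shared at least 50% of the 50-base stretches of their transcript with another GENCODE transcript. Their counts are therefore too low by an amount that differs between genes. The knockout check gave Prkce at 6.59 to 10.97 CPM in 14 of the 15 libraries labelled as lacking it and 24.0 to 52.9 CPM in the libraries that should have it. The library labelled combined, TAC, replicate 2 stood at 31.5 CPM, against its label, and wild-type TAC replicate 2 gave the 24.0. Myh2, a skeletal muscle myosin, was at 10.2 CPM in wild-type TAC replicate 2 and at most 0.30 CPM in the other wild-type libraries. In the combined group it was at 6.27 to 7.66 CPM in TAC replicates 1, 3 and 4, at 0.152 CPM in TAC replicate 2 and at 0 to 0.167 CPM in the unstressed libraries, and with PKCepsilon knockout at 2.99 to 28.8 CPM. Myh2 thus did not follow Prkce in the unstressed combined group. Prkcd stood at 16.3 to 18.7 CPM with PKCdelta ablation and 13.4 to 15.9 CPM in wild type unstressed, and at 17.7 to 20.8 CPM and 20.5 to 28.0 CPM after TAC. Which exons were deleted is not given in the sources used here, so counts over the whole gene do not check that deletion. Sex transcripts went against many labels: 19 of 23 libraries labelled male held Xist at 5 CPM or more. In 11 libraries Xist and the sum of Y-linked transcripts were both at 5 CPM or more, and the cause was not tested. Female labels occurred in TAC groups only, for 3 of 4 combined, 2 of 3 PKCdelta and 1 of 4 wild-type libraries. The labelled sex is thus uneven between TAC and unstressed groups. Labels tie libraries to animals by title only, so p-values measure the spread between libraries. Some libraries were much closer than others of their group: unstressed combined replicates 2 and 4 differed by a chi-square per degree of freedom of 1.58, against 10.3 to 15.9 for that group's other pairs, and unstressed wild-type replicates 1 and 4 by 2.29 against 7.21 to 13.4. Unstressed PKCepsilon replicates 1 and 2 differed by 2.63 against 8.45 and 13.2, and PKCdelta TAC replicates 1 and 2 by 2.54 against 5.36 and 5.34. All these pairs differed by more than counting noise, which does not show that they come from separate animals. They were kept as separate samples, as labelled.

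Cell type markers were checked as summed CPM. All 12 cardiomyocyte markers were detected, at 122600 to 145800 CPM unstressed and 106300 to 130900 CPM after TAC. The 11 fibroblast markers, none at 0 in any group, summed to 904 to 1438 CPM unstressed and 1709 to 3912 CPM after TAC, without overlap. Smooth muscle and pericyte markers (8) summed to 1160 to 1532 CPM unstressed and 884 to 1282 CPM after TAC. For the 9 endothelial markers the sums were 1141 to 1618 and 1349 to 1653 CPM. Of 10 macrophage and monocyte markers tested 9 rose after TAC in wild type (median log2 fold change 0.494) and 3 in each single deletion. In the combined group 0 rose and 2 fell. Of all genes 17.8%, 12.9%, 14.5% and 22.0% were called higher in wild type, PKCdelta, PKCepsilon and combined, and 21.8% lower in combined. The 11 skeletal muscle markers summed to 45.4 to 95.2 CPM unstressed and 102 to 238 CPM after TAC. In bulk RNA, fewer cells of a type and less RNA per cell cannot be told apart. The part of these cell types in the results below was not tested.

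After TAC the summed share of the ribosomal protein genes among all gene counts was higher in every genotype. In wild type they made up 1.53%, 1.45%, 1.59% and 1.52% of gene counts in the unstressed libraries and 1.81%, 2.15%, 2.02% and 1.76% after TAC. Unstressed libraries of all genotypes lay at 1.45% to 1.59% and TAC libraries at 1.69% to 2.15%, and the ranges did not overlap. Part of the denominator moved as well, since the ribosomal RNA precursor Rn45s took 9.90% to 14.1% of counts unstressed and 4.51% to 8.59% after TAC. With Rn45s left out the shares were 1.65% to 1.80% and 1.79% to 2.25%, and the ranges overlapped. PKCepsilon TAC replicate 3, at 1.793%, lay below unstressed wild-type replicate 3, at 1.803%.

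**Figure D1:**
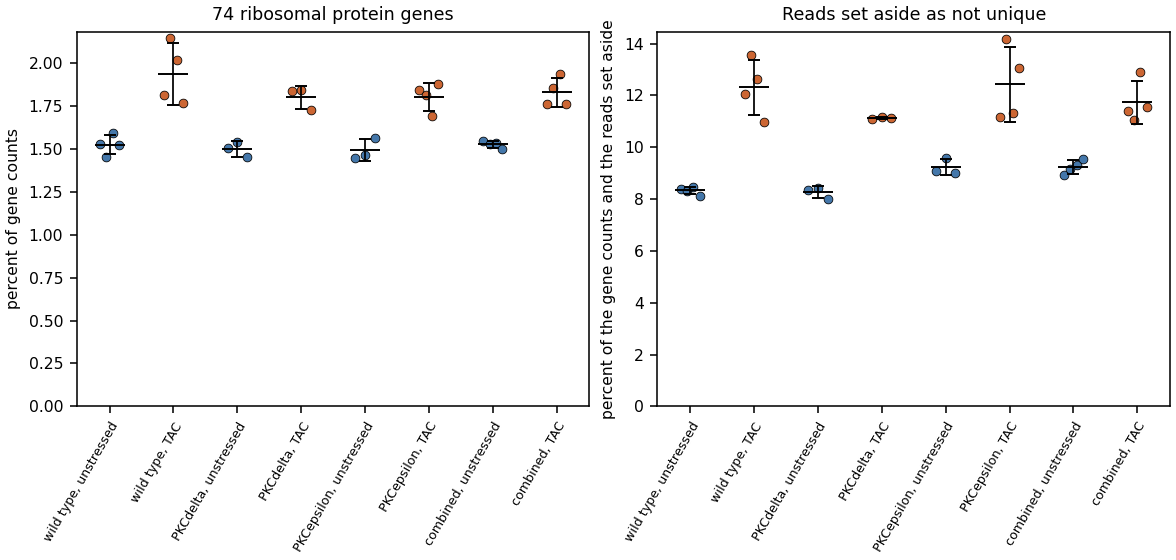
Left, the summed counts of the 74 ribosomal protein genes as a percent of all gene counts. Right, reads with more than 1 alignment as a percent of gene counts plus reads set aside. Each point is a library (blue unstressed, orange TAC), with bars for the group mean ± SD. In both panels all 15 TAC libraries lie above all 14 unstressed libraries, at 1.69% to 2.15% against 1.45% to 1.59% on the left.

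Single genes were then tested in edgeR's quasi-likelihood model of all 29 libraries, which scales libraries by the bulk of their genes. A gene is called when its Benjamini-Hochberg adjusted p over 13765 genes is below 0.05. Errors of log2 fold changes are SE. In wild type 42 of the 74 genes rose after TAC and 4 fell, where 17.8% of all genes tested were called higher and 17.9% lower. With PKCdelta ablation 36 rose and 4 fell (12.9% and 14.0% of all genes). With PKCepsilon knockout 33 rose and 3 fell (14.5% and 14.3%). In the combined group 43 rose and 4 fell (22.0% and 21.8%). The median log2 fold change of the 74 genes was 0.26, 0.23, 0.16 and 0.23 in this order, where that of all genes lay between -0.02 and 0.00. With the trend of the other genes with transcript length removed, these medians were 0.145, 0.16, 0.059 and 0.142. Both subunits took part: in wild type 23 of 40 large-subunit and 18 of 29 small-subunit genes rose.

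The rise was moderate for most genes, and the number called changed when the length trend of the other genes was removed. In wild type the quartiles of the 74 log2 fold changes were 0.06 and 0.45, and the extremes were -0.59 for Rps25 and 0.77 for Rpl39. Other genes with transcripts under 1000 bases had medians of 0.10, 0.08, 0.12 and 0.11 in wild type, PKCdelta, PKCepsilon and combined. Of them 24.2%, 19.7%, 20.9% and 27.0% were called higher. The 56 ribosomal protein genes of that length had medians of 0.29, 0.26, 0.20 and 0.23. Of these, 60.7%, 50%, 48.2% and 53.6% were called higher. Of the 303 other genes of that length with a mean log2 CPM of 5 or more, 32.3%, 30.7%, 31.7% and 39.3% were called higher. Most ribosomal protein genes lie above that level, so these shares are the closer background. With the length trend of the other genes taken out, 32 genes rose and 8 fell in wild type, 28 and 8 with PKCdelta ablation, 23 and 9 with PKCepsilon knockout, and 34 and 8 in the combined group. Without the 2 libraries that stand apart in Prkce, 34 rose and 4 fell in wild type and 43 and 5 in the combined group. The shares of all genes called in these refits are not given here, so these counts are not set against a background. Within the 4 genotypes the genes that share at least 50% of their 50-base stretches had medians of 0.25, 0.22, 0.13 and 0.21, and the others 0.28, 0.31, 0.22 and 0.28.

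**Figure D2:**
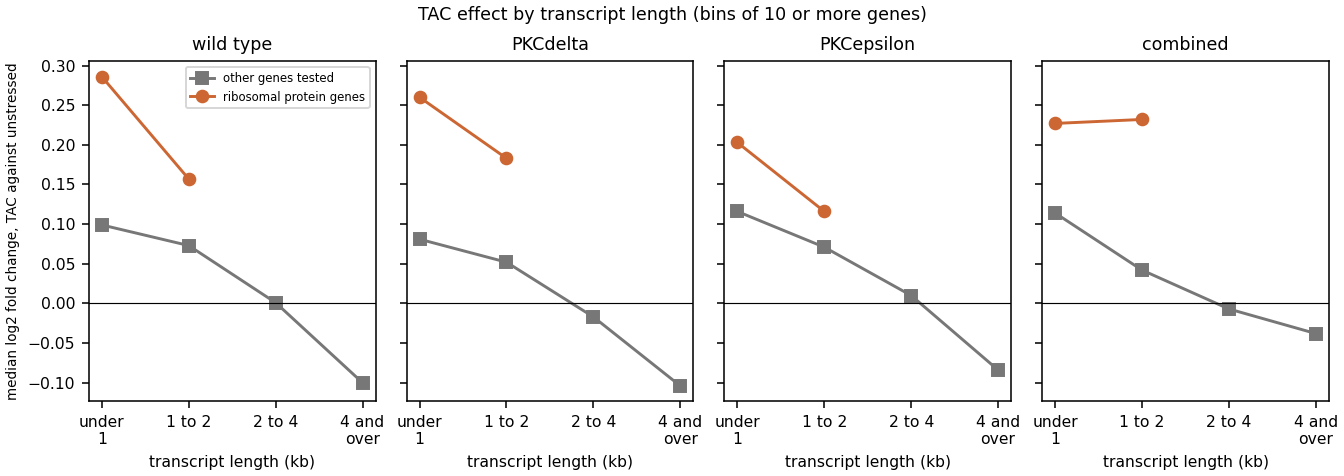
Median log2 fold change of TAC against unstressed by transcript length, for the 74 ribosomal protein genes (orange) and the other tested genes (grey), in each genotype. Points are medians over genes in a length bin, and bins with fewer than 10 genes are not drawn. The grey medians decline with length in all 4 genotypes, and the orange ones lie above them in both bins drawn (0.29 against 0.10 under 1000 bases in wild type).

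The 4 TAC comparisons share no library, so their calls can be counted together. They come from the same model, however. In every genotype TAC libraries also differed from unstressed ones in Rn45s and in reads with more than 1 alignment. The part of this in the agreement between genotypes was not tested. Called higher in all 4 genotypes were 20 of the 74 genes, where 4.57% of all genes were. Among them were Rpl3, Rpl8, Rpl10a, Rpl18, Rpl28, Rpl36, Rpl38, Rplp2, Rps13, Rps14 and Rps20. A further 15 were called higher in 3 genotypes, 6 in 2 and 17 in 1, and 16 in none, where the shares of all genes were 5.76%, 6.52%, 18.6% and 64.6%. The counts for 2 genotypes and for 1 lie near those shares. No ribosomal protein gene was called lower in all 4, against 4.34% of all genes. None was called in opposite directions, where 489 of the 13765 genes tested were. Both shares are small, so little can be read from 0 of 74 genes.

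**Figure D3:**
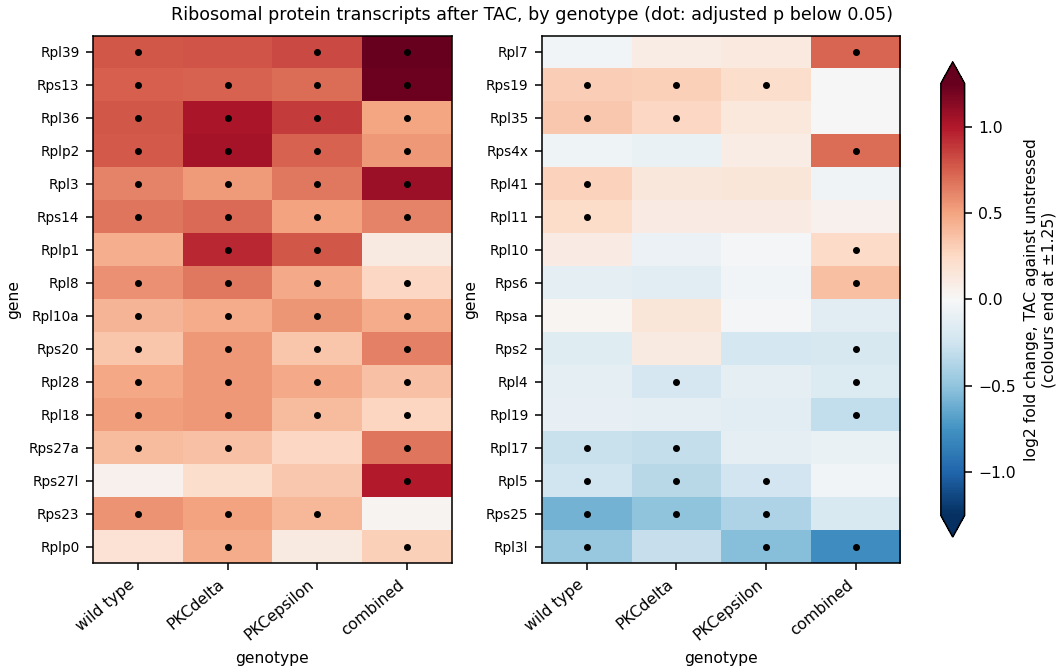
Log2 fold change of TAC against unstressed for the ribosomal protein genes that the naming rule picked (rows, ordered by their mean over genotypes) in the 4 genotypes (columns). Red is higher and blue lower after TAC, colours end at the limits of the bar, and a dot marks an adjusted p below 0.05 in edgeR's quasi-likelihood test. Rows such as Rpl3, Rps13 and Rplp2 are red with a dot in all 4 columns, and Rpl3l and Rps25 are blue across the row.

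Rps14, a protein of the platform of the small subunit, gave the smallest adjusted p in wild type. It rose by 0.67 ± 0.08 in wild type (adjusted p = 3.7e-07), 0.71 ± 0.09 with PKCdelta ablation, 0.51 ± 0.09 with PKCepsilon knockout and 0.62 ± 0.08 in the combined group. Over all genotypes Rps14 lay at 161 to 202 CPM in unstressed libraries and 253 to 350.3 CPM in TAC libraries, so no TAC library fell into the unstressed range. The same separation held for Rpl8, which lies near the catalytic centre of the large subunit, at 237 to 324 CPM against 338 to 493.4 CPM. Rpl28 went from 212 to 274 CPM to 307 to 428 CPM, again without overlap. Rps13 stood at 45.5 to 73.7 CPM unstressed and 87.8 to 155.5 CPM after TAC. It rose by 1.22 ± 0.13 in the combined group (adjusted p = 3.2e-08) and by 0.75 ± 0.13 in wild type, and the difference between these missed the threshold (0.47 ± 0.18, adjusted p = 0.054).

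The stalk of the large subunit, built of Rplp0 and pairs of Rplp1 and Rplp2, is the arm that draws in elongation factors. Rplp2 (chr7:141447370-141451585) rose in all 4 genotypes. In wild type it stood at 107, 80.7, 83.4 and 77.2 CPM unstressed and at 159, 153, 146 and 135 CPM after TAC. With PKCdelta ablation the values were 67.2, 77.2 and 50.6 CPM, and 144, 129.5 and 127 CPM after TAC. TAC libraries were higher without overlap in both genotypes, with log2 fold changes of 0.77 ± 0.13 (adjusted p = 5.4e-05) and 1.04 ± 0.15 (adjusted p = 1.9e-05). With PKCepsilon knockout Rplp2 went from 63.5, 78.5 and 78.4 CPM to 132, 127, 101 and 131 CPM. In the combined group it went from 83.4, 84.2, 84.0 and 79.4 CPM to 129, 86.2, 128 and 138 CPM. The 86.2 CPM, from the library whose Prkce goes against its label, lay just above the unstressed range. Rplp1 was called with PKCdelta ablation (0.94 ± 0.22) and PKCepsilon knockout (0.77 ± 0.21) and not in wild type (0.46 ± 0.19, adjusted p = 0.066). It ranged from 209 to 567.7 CPM among unstressed libraries. Rplp0 was called with PKCdelta ablation (0.46 ± 0.10) and in the combined group (0.30 ± 0.08) and stood at 0.18 ± 0.08 in wild type (adjusted p = 0.095).

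Rpl3 and its paralog Rpl3l, which takes its place in striated muscle ribosomes, moved in opposite directions. Rpl3 lies at chr15:80077791-80091868 and Rpl3l at chr17:24727820-24736143 of GRCm38. In wild type Rpl3 stood at 132, 152, 138 and 138 CPM unstressed and at 198, 215, 240.1 and 204 CPM after TAC. In the combined group it stood at 113, 124, 111 and 130.0 CPM and, after TAC, at 288, 215, 262 and 238 CPM. The TAC libraries were higher without overlap in both genotypes. The log2 fold changes of Rpl3 were 0.62 ± 0.09 in wild type (adjusted p = 4.3e-06), 0.54 ± 0.10 with PKCdelta ablation, 0.66 ± 0.10 with PKCepsilon knockout and 1.07 ± 0.09 in the combined group (adjusted p = 1.9e-10). The combined group's rise exceeded that of wild type by 0.45 ± 0.12 (adjusted p = 0.008 for the interaction).

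Rpl3l stood at 244, 247, 241 and 243 CPM in unstressed wild type and at 167, 186, 168 and 179 CPM after TAC, a narrow pair of groups far apart. It fell by 0.48 ± 0.10 on the log2 scale (adjusted p = 0.00037). In the combined group Rpl3l went from 227, 219.7, 241 and 221 CPM to 105, 148, 130.1 and 147 CPM and fell by 0.78 ± 0.10 (adjusted p = 2.8e-07). With PKCepsilon knockout it went from 262, 276 and 253 CPM to 157, 189.9, 148 and 233 CPM and fell by 0.53 ± 0.10 (adjusted p = 0.00034). One TAC library of that group remained close to the unstressed level. With PKCdelta ablation the values were 214, 233 and 228 CPM and 189, 182 and 183 CPM. These too did not overlap, yet the change of -0.28 ± 0.11 missed the threshold (adjusted p = 0.061).

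The ratio of Rpl3l to Rpl3 counts was 1.62 to 1.85 in unstressed and 0.70 to 0.88 in TAC libraries of wild type. It was 1.70 to 2.17 and 0.36 to 0.69 in the combined group. Over all genotypes the unstressed ratios ran from 1.58 to 2.22 and the TAC ratios from 0.36 to 1.30. The transcripts are of like length (1351 and 1375 bases), but 85.6% of the 50-base stretches of Rpl3 also occur in other transcripts and 0% of those of Rpl3l, so Rpl3 is undercounted and the ratio shows the change and not the true proportion. After TAC the combined group held less Rpl3l than wild type (-0.40 ± 0.10, adjusted p = 0.016). This was not called with only the groups compared (adjusted p = 0.16), without wild-type TAC replicate 2 (0.051) or without combined TAC replicate 1 (0.11). It was also not called with the sex label as a term (0.069). That fit says little about sex, since the labels go against many transcripts and are uneven here, with 3 of 4 and 1 of 4 libraries labelled female.

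**Figure D4:**
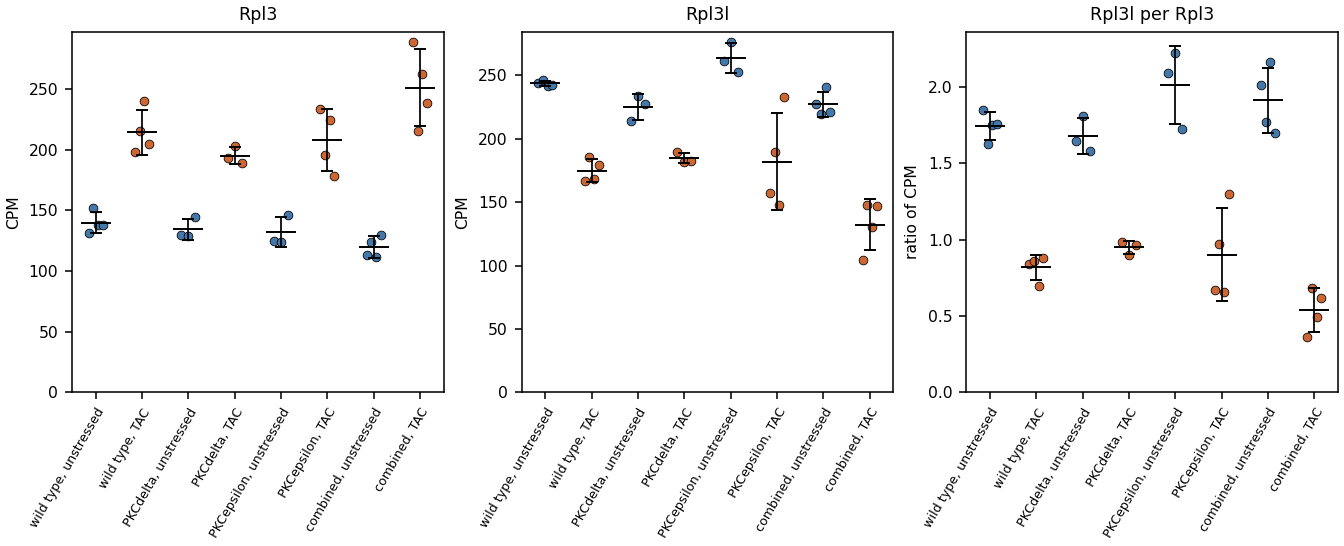
CPM of Rpl3 (left) and Rpl3l (middle) and the ratio of Rpl3l to Rpl3 (right) in each library, by genotype and condition. Points are libraries (blue unstressed, orange TAC), and bars give the group mean ± SD. Rpl3 rises and Rpl3l declines from unstressed to TAC, so the ratio moves from 1.58 to 2.22 down to 0.36 to 1.30.

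Besides Rpl3l, 6 genes were called lower in at least 1 genotype: Rps25, Rpl5, Rpl17, Rpl4, Rpl19 and Rps2. Rps25, a small-subunit protein at the head that some internal ribosome entry sites depend on, fell most in wild type. There it stood at 178, 177, 215 and 193 CPM unstressed and at 120.5, 123, 135 and 128 CPM after TAC, without overlap, and fell by 0.59 ± 0.08 (adjusted p = 2.2e-06). With PKCdelta ablation it fell by 0.51 ± 0.09 and with PKCepsilon knockout by 0.38 ± 0.09, each also without overlap. In the combined group it went from 183, 180.4, 170.4 and 174 CPM to 172, 165, 146 and 136 CPM, groups that overlap, and the change of -0.19 ± 0.08 was not called (adjusted p = 0.052). This differed from wild type by 0.40 ± 0.11 (adjusted p = 0.01 for the interaction). Rps25 has 24.8% of its exon bases under exons of the opposite strand, and these libraries do not mark strand, so its reads cannot be told apart from those of the other gene there.

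Rpl5 carries the 5S ribosomal RNA into the large subunit together with Rpl11 and, when assembly fails, binds the p53 regulator Mdm2. It fell by 0.25 ± 0.07 in wild type, 0.35 ± 0.09 with PKCdelta ablation and 0.24 ± 0.08 with PKCepsilon knockout, and stood at -0.04 ± 0.07 in the combined group. Its partner Rpl11 rose in wild type by 0.23 ± 0.08 (adjusted p = 0.021), and without wild-type TAC replicate 2 that call was lost. Rpl5 shares 93.8% of its 50-base stretches with other transcripts and has 24.3% of its exon bases under exons of the other strand, so its value is uncertain. Rpl17 fell in wild type (by 0.28 ± 0.08) and with PKCdelta ablation (by 0.30 ± 0.10). Rpl19 was called in the combined group alone, where it fell by 0.31 ± 0.06 (adjusted p = 0.00011), and Rpl4 by 0.17 ± 0.06 there and by 0.21 ± 0.07 with PKCdelta ablation. Rps2, a protein at the mRNA entry site, fell by 0.20 ± 0.08 in the combined group (adjusted p = 0.05, rounded from just below), and without combined TAC replicate 1 the value was -0.08 (adjusted p = 0.31).

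Other ribosomal proteins are known for roles of their own. Rpsa, also known as the laminin receptor, was at 449 to 574 CPM in unstressed and 411 to 594 CPM in TAC libraries and was called in no genotype. Rps27a, which is made as a fusion with ubiquitin, rose in wild type (0.39 ± 0.12), PKCdelta (0.37 ± 0.14) and the combined group (0.66 ± 0.12). Rpl10, whose loading completes the large subunit, was called in the combined group alone (0.24 ± 0.09, adjusted p = 0.029).

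The combined group differed from wild type before any load. Against unstressed wild type 6 genes were higher and 12 lower (15.3% and 13.9% of all genes tested). Lower were Rpl39, Rps27l, Rpl7, Rps4x, Rps6, Rps13, Rplp0, Rps20, Rpl35a, Rpl9, Rps7 and Rpl22, and higher were Rps23, Rpl41, Rpl35, Rps15, Rpl19 and Rpl4. With the length trend removed 10 were higher and 13 lower, and without the 2 libraries that stand apart 8 and 14. Without combined replicate 2, or without replicate 4, the close pair, 4 were higher and 11 lower. The family as a whole was not shifted, with a median of -0.03. The 16.2% called lower lie near the background, and the 8.11% called higher lie below it. Cell markers differed between these groups too: the 9 endothelial markers summed to 1141 to 1285 CPM in the combined group and 1507 to 1618 CPM in wild type, and the 11 macrophage markers to 418 to 441 CPM and 337 to 376 CPM. Of 8 smooth muscle and pericyte markers 5 were lower in the combined group (median log2 difference -0.461), and of 11 fibroblast markers 4 were lower (median -0.224). Their part in the result was not tested.

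Rps4x, the X-linked copy of a small-subunit protein (chrX:102184941-102189394), stood at 116, 131, 111 and 130.0 CPM in the unstressed combined group. In unstressed wild type it stood at 172, 153, 184 and 171 CPM, with PKCdelta ablation at 194, 180.0 and 197 CPM, and with PKCepsilon knockout at 184, 197 and 156 CPM. All 4 combined libraries lay below all 10 other unstressed libraries, and the difference from wild type was -0.48 ± 0.09 (adjusted p = 0.00014). After TAC the combined libraries stood at 208, 226, 189 and 166 CPM and wild type at 150.5, 148, 179 and 177 CPM, so the groups then overlapped. Rps4x rose with TAC in the combined group by 0.70 ± 0.09 (adjusted p = 2.4e-07), against values of -0.05 ± 0.09, -0.08 ± 0.10 and 0.09 ± 0.09 in wild type, PKCdelta and PKCepsilon.

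Rpl7, a large-subunit protein (chr1:16101295-16104662), was ordered likewise. The unstressed combined libraries stood at 121, 138, 117 and 125 CPM and those of wild type at 161, 174, 188 and 176 CPM. After TAC the combined libraries stood at 209.8, 244, 196 and 183 CPM and wild type at 159.7, 136, 199.5 and 188 CPM. The unstressed groups did not overlap (-0.48 ± 0.09, adjusted p = 0.00025), and TAC raised Rpl7 by 0.73 ± 0.09 in the combined group (adjusted p = 2.5e-07), with no call in the other genotypes. Rps6, the substrate of the S6 kinases downstream of mTORC1, was at 166 to 189 CPM in the unstressed combined group and 212 to 250.5 CPM in the other unstressed libraries, lower than wild type by 0.40 ± 0.07 on the log2 scale (adjusted p = 0.00018). Rps27l, a p53-induced paralog of Rps27, stood at 9.97, 9.52, 7.84 and 7.21 CPM in the unstressed combined group and at 17.2, 14.9, 13.6 and 14.4 CPM in unstressed wild type (-0.80 ± 0.14, adjusted p = 6.5e-05). After TAC its combined libraries were at 15.5 to 19.9 CPM, within the 12.1 to 18.7 CPM of wild type but for the highest.

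**Figure D5:**
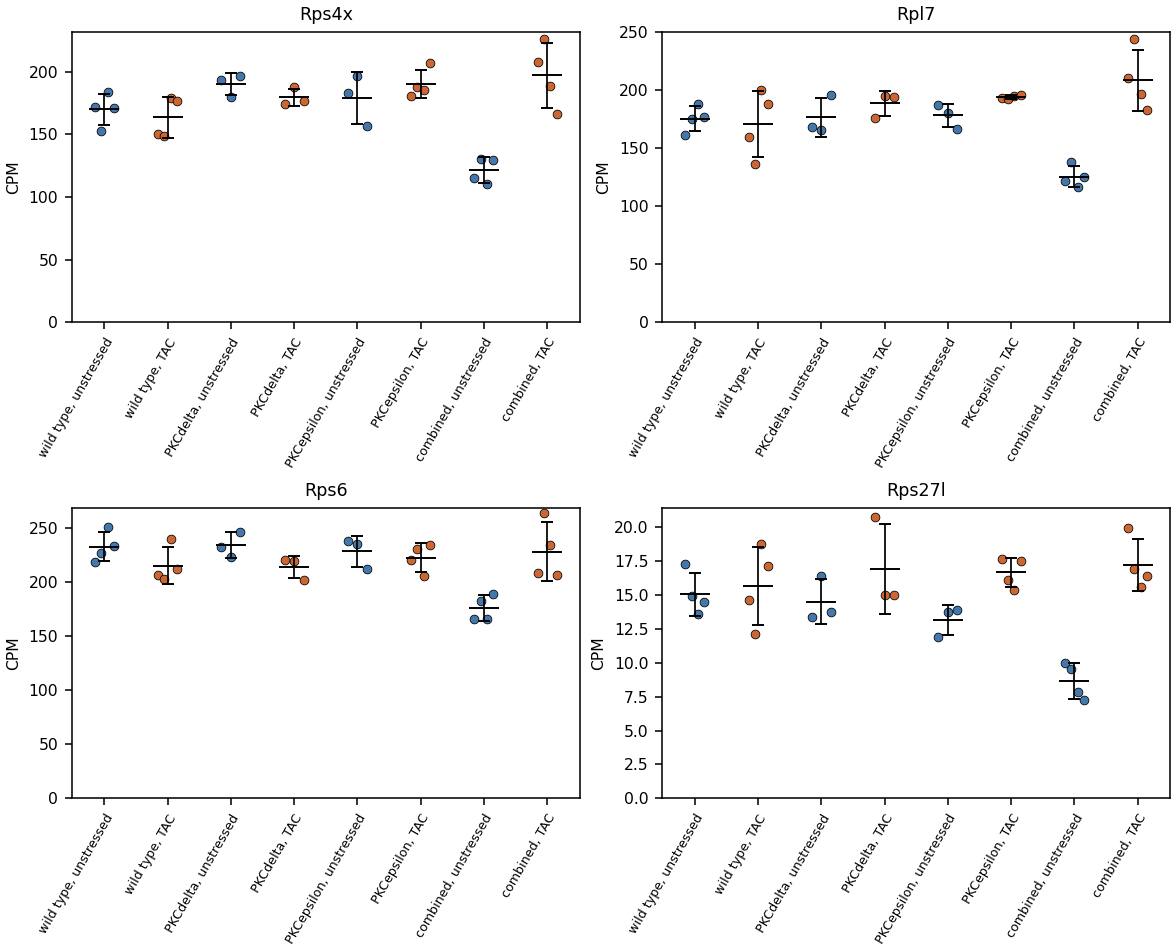
CPM of Rps4x, Rpl7, Rps6 and Rps27l in each library, by genotype and condition. Points are libraries (blue unstressed, orange TAC), and bars give the group mean ± SD. In all 4 panels the unstressed combined libraries lie below every other unstressed library, as for Rps4x at 111 to 131 CPM against 153 to 197 CPM, and the TAC combined libraries do not.

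The interaction asked whether the TAC effect of a deletion differed from that of wild type. For PKCdelta 0 of 74 genes passed (0.458% of all genes higher and 0.814% lower), with 3 at an unadjusted p below 0.05, and DESeq2 also called 0. For PKCepsilon 0 passed (0.00726% and 0.0291%), with 2 at an unadjusted p below 0.05, and DESeq2 called 0. For the combined group 11 were higher and 5 lower (12.6% and 12.5%), and 12 and 2 without the 2 libraries that stand apart. The 14.9% called higher lie near the background, and the 6.76% called lower lie below it. The higher ones were Rpl39 (1.44 ± 0.41), Rps27l (0.93 ± 0.18), Rpl7 (0.77 ± 0.13), Rps4x (0.75 ± 0.12), Rps6 (0.48 ± 0.10), Rpl3, Rps25, Rpl35a, Rps24, Rpl9 and Rpl22. The lower ones were Rps23 (-0.53 ± 0.16), Rpl35, Rpl41, Rpl8 and Rps19. This comparison, the one between unstressed groups and the TAC effect of the combined group use the same 4 unstressed combined libraries, so their calls are not separate evidence. Rpl39, a small protein lining the exit tunnel, is the least counted of the 74 at 2.49 to 5.42 CPM in these libraries and 9.11 to 26.5 CPM after TAC, and its lower level against unstressed wild type (-0.92 ± 0.31, adjusted p = 0.03) was lost on leaving out any 1 of 5 libraries (wild-type replicates 1, 3 and 4 and combined replicates 1 and 3; adjusted p 0.058 to 0.11).

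Rps23, which sits at the decoding centre, and Rpl41, the shortest ribosomal protein, show the opposite order. Rps23 stood at 84.2 to 103 CPM in the unstressed combined group and 64.7 to 78.4 CPM in unstressed wild type (0.43 ± 0.12, adjusted p = 0.0063). After TAC it was at 87.3 to 102 CPM in the combined group and 88.8 to 127 CPM in wild type. The change with TAC was 0.03 ± 0.12 in the combined group (adjusted p = 0.85), while in wild type it rose by 0.56 ± 0.12 (adjusted p = 0.0005). Rps19, mutated in Diamond-Blackfan anaemia, rose in the other 3 genotypes by 0.22 to 0.31 and stood at -0.01 ± 0.07 in the combined group. The interaction calls of Rps23, Rpl35, Rpl41 and Rpl8 were lost without wild-type TAC replicate 2, which stands apart in Prkce and had the largest ribosomal protein share of all libraries.

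Few ribosomal protein genes were called between single deletions and wild type. With PKCdelta ablation 0 genes were higher and 2 lower (2.64% and 2.73% of all genes), Rplp0 (-0.33 ± 0.09, adjusted p = 0.027) and Rps20 (-0.29 ± 0.08, adjusted p = 0.036). Both calls were lost without PKCdelta replicate 1 or 3, or without wild-type replicate 3. With PKCepsilon knockout 0 passed (1.53% and 1.47%), with 5 at an unadjusted p below 0.05, and DESeq2 called 1. Between TAC groups 0 genes were called for PKCdelta against wild type (0.0% of all genes, with 0 at an unadjusted p below 0.05 and 0 by DESeq2). For PKCepsilon 0 were called too (0.0218% in each direction, with 6 at an unadjusted p below 0.05 and 0 by DESeq2). Small differences can be missed. In each comparison 59 of the 74 genes lay below 0, where 7202 and 6781 of the 13765 genes did. The medians of -0.083 and -0.067 became -0.01 and -0.007 without the 2 libraries that stand apart in Prkce. The combined group differed in Rps25, which was higher (0.29 ± 0.08, adjusted p = 0.028), and Rpl3l, which was lower, where 4.22% and 2.54% of all genes were called. Rps25 was not called there with only the groups compared (adjusted p = 0.19) or without the 2 libraries that stand apart (0.14). Nor was it called on leaving out wild-type TAC replicate 1 or 2 or combined TAC replicate 1 or 2 (adjusted p 0.057 to 0.15). With the sex label as a term, which has little meaning here, it was not called either (0.12).

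Other parts of the translation machinery were counted from gene lists, with no test of the lists. Of all genes 17.8%, 12.9%, 14.5% and 22.0% were called higher after TAC in wild type, PKCdelta, PKCepsilon and combined, and 17.9%, 14.0%, 14.3% and 21.8% lower, and the counts are to be read against these shares. Of 9 elongation factors 5, 4, 1 and 4 rose after TAC in the same order, and none fell. The 1 with PKCepsilon knockout is no more than the background. Among them Eef1g, a subunit of the exchange factor of Eef1a, rose by 0.23 ± 0.07, 0.35 ± 0.08 and 0.28 ± 0.07 in wild type, PKCdelta and combined. Of 34 initiation factors 9, 9, 9 and 18 rose and 1, 3, 1 and 2 fell. The cap-independent initiation factor Eif4g2 fell in all 4 (by 0.44 ± 0.07 in wild type), and Eif2b2, a subunit of the exchange factor of eIF2, rose in all 4 (0.44 ± 0.08 in wild type). Of 59 ribosome assembly genes 21, 14, 12 and 17 rose and 2, 2, 1 and 4 fell, and Rrp12, which helps export both subunits from the nucleus, rose by 1.10 ± 0.12, 1.01 ± 0.13, 1.34 ± 0.13 and 1.16 ± 0.11.

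Of 16 genes of RNA polymerase I and its factors 3, 1, 1 and 2 were higher and 2, 2, 1 and 3 lower, which in no genotype is above the background by more than 1 gene. Its largest subunit Polr1a fell in all 4 genotypes, by 0.23 ± 0.05 in wild type and 0.44 ± 0.05 in the combined group. Of 20 other genes whose transcripts carry the pyrimidine tract 10, 6, 5 and 10 rose and 1, 1, 1 and 2 fell. Naca, a subunit of a chaperone at the exit tunnel, fell in all 4 (by 0.71 ± 0.08 in wild type), while its partner Btf3 rose in all 4. Fau, which encodes Rps30 fused to a ubiquitin-like protein and falls outside the naming rule, rose in all 4 (0.39 ± 0.07 in wild type).

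Of 34 genes of the mTORC1 list 3, 3, 5 and 9 were higher and 9, 6, 8 and 5 lower, in part near the background, as for the 5 higher with PKCepsilon knockout. Eif4ebp2, a repressor of cap-dependent translation, fell in all 4 genotypes, by 0.53 ± 0.08 in wild type and 1.01 ± 0.08 in the combined group. Deptor, an inhibitor of mTOR, fell by 0.76 ± 0.15 in wild type, 0.76 ± 0.17 with PKCdelta ablation and 0.65 ± 0.16 with PKCepsilon knockout, and stood at 0.02 ± 0.15 in the combined group. In unstressed hearts Deptor was already lower in the combined group than in wild type (-0.63 ± 0.15, adjusted p = 0.0018). Rheb, the GTPase that activates mTORC1, and Eif4e, the cap-binding protein, were lower in the unstressed combined group too (-0.38 ± 0.09 and -0.55 ± 0.11). In that comparison 15.3% of all genes were called higher and 13.9% lower. The list is not counted for it here, so the genes named do not stand for the list.

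Levels per kilobase of transcript varied widely within the family, although the ribosome holds its proteins in near equal number. Rpl41 was highest at 1185 CPM per kilobase and Rpl39 lowest at 18.7, with a median of 276. Shared sequence lowers such levels by an unknown factor, so the order of genes is a description of these counts only. Across the 29 libraries the 2701 pairs of genes had a median Pearson r of log2 CPM of 0.47, with 78.5% of pairs positive, and of 0.38 with 84.0% positive after subtracting each group's mean. These libraries share their scaling, and the correlations carry no test. Within groups Rpl7 ran against the mean of the others (r = -0.31), and Rps2, Rps27l, Rps4x and Rpl3 were near 0 to 0.09.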

How the data were processed

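Polyadenylated RNA was sequenced in 29 mouse heart libraries, non-strand-specific and single-end, per the labels' protocols. The authors deposited whole-number counts of reads per gene, not normalized. Per the submitters' processing notes, the build was mm10 and the tools included HTSeq, Bowtie2, TopHat2 2.0.10, DESeq and edgeR. What each tool did, and with which gene annotation, is not given in the sources used here. The library files and the table of the series held the same counts for 23391 shared names. Totals of reads outside genes were left out of library sizes.

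Counts were fitted with edgeR 4.0.16 (R 4.3.3): TMM scaling, filterByExpr by group, and the robust quasi-likelihood test of 8 group means over all 29 libraries, with 21 residual degrees of freedom. Over 13765 genes, p-values were adjusted by Benjamini-Hochberg for each of 13 comparisons. CPM uses TMM library sizes, except in the choice of genes, which uses raw totals, and shares of counts use raw totals. Alternatives were RLE scaling, no filter, DESeq2 1.42.0, the sex label as a term, a replicate block, only the groups compared, leaving out the 2 libraries that stand apart in Prkce, removing a trend with transcript length, and leaving out each library. The script was tested on simulated data. Shared 50-base stretches, lengths and gene positions came from the GENCODE annotation of GRCm38, and start windows from RefSeq, GRCm38.p6. Figures used matplotlib 3.10.9.

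Named were Rpl3, Rpl3l, paralogs with the suffix l, stalk proteins, Rpsa, Rps6, Rps27a, Rpl5, Rpl10, Rpl11 and Rpl41, up to 5 genes in each direction with the smallest adjusted p per TAC comparison and up to 3 in the others, the highest and lowest per kilobase, and up to 3 called genes in each direction of each list. Deptor, Rheb and Btf3, genes listed to spell out a count, and genes listed with the start windows were named after their values were seen. Members and lists were chosen with earlier results of these data known. Of the genes called higher in all 4 genotypes, not all are reported by name here.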

Additional observations from a re-analysis of the deposited data

Results flagged for a closer look

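In 6 of 165 groups of 4 libraries or more, 1 library lay far from the rest by Dixon's criterion, which chance meets in about 1 of 20 groups. Rps23 was at 78.36 CPM in unstressed wild-type replicate 3 and Rplp2 at 79.43 CPM in unstressed combined replicate 4. Rpl10 was at 250.8 CPM in PKCepsilon TAC replicate 1, and in PKCepsilon TAC replicate 3 Rpl10a was at 161.1 CPM and Rpsa at 444.3 CPM. Rps2 was at 376.3 CPM in combined TAC replicate 1.

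The effect of TAC on 16 genes differed between the combined group and wild type by the interaction test of edgeR. Of the 74 genes 14.9% were called higher and 6.76% lower, where 12.6% and 12.5% of all genes were. The share called higher thus lies near the background and the share called lower below it. On the log2 scale the combined effect exceeded that of wild type by 1.439 for Rpl39, 0.933 for Rps27l, 0.766 for Rpl7, 0.749 for Rps4x, 0.485 for Rps6, 0.454 for Rpl3, 0.401 for Rps25, 0.38 for Rpl35a, 0.363 for Rps24, 0.30 for Rpl9 and 0.277 for Rpl22. The difference was -0.526 for Rps23, -0.331 for Rpl35, -0.33 for Rpl41, -0.317 for Rpl8 and -0.316 for Rps19.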

How the results depend on the processing

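The counts of ribosomal protein genes called after TAC, and between unstressed combined and wild-type hearts, remained within 1.5 times under the alternatives that kept all libraries. Shares of all genes called are given for the main fit only. Against unstressed wild type, PKCdelta ablation gave 2 calls, 6 with DESeq2 and 4 without the 2 libraries that stand apart, and PKCepsilon knockout gave 0, and 1 with DESeq2 or with only the groups compared. Between combined and wild-type TAC hearts the 2 calls became 4 with DESeq2, 0 with the sex label as a term or only the groups compared, and 1 without the 2 libraries. Leaving out 1 library gave 22 to 35 calls for TAC with PKCepsilon knockout (22 without unstressed replicate 1), 0 to 6 for unstressed PKCdelta ablation, and 0 to 6 for combined against wild type after TAC (0 without wild-type TAC replicate 2, 6 without combined TAC replicate 4). With a replicate block the TAC counts were 46, 40, 34 and 47. Libraries of the same number did not deviate together (median r -0.00567 over 94 pairs, 8 over 0.1), so the numbers were not taken to pair them.

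Only uncalled changes reversed. After TAC, Rpl7 was at 0.07 in wild type and Rps4x at 0.000 without the 2 libraries, Rpl7 at -0.007 with PKCdelta ablation and the sex label as a term, and with the length trend removed Rps27l was at -0.046 in wild type and Rps4x at -0.004 with PKCepsilon knockout. Leaving out 1 library gave -0.118 to 0.06 for Rpl7 and -0.044 to 0.16 for Rps27l in wild type, -0.082 to 0.001 for Rps6 with PKCepsilon knockout, and -0.105 to 0.006 for Rpl5 in the combined group. The cause was not tested. Many labels of sex go against the transcripts, so the sex term has little meaning. Multiply aligned reads are not counted, which limits all levels here.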
